A study of Bos grunniens and Bos grunniens x Bos taurus with 12 samples.

Results

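The laminin, integrin, nidogen, perlecan and agrin genes of the yak testis were taken from the deposited ribosome footprint tables by gene symbol. The rule accepted symbols that begin with LAMA, LAMB or LAMC and a digit, symbols of the form ITGA or ITGB followed by digits or capital letters, NID1 and NID2, HSPG2 and AGRN. It took 38 of the 20965 genes in the tables. They comprised 11 laminin chains, 22 integrin subunits (16 alpha and 6 beta), NID1, AGRN and 3 further proteins whose symbols fit the pattern although they are neither chain nor subunit, namely ITGB1BP1, ITGB1BP2 and ITGBL1. No row was taken for HSPG2, NID2, ITGB1 or ITGB3, which are not analysed here under those symbols.

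Ribosome footprints, the stretches of mRNA that translating ribosomes shield from nuclease, were sequenced from whole testis in 4 groups of 3 males each. The labels call yak of 6 months juvenile, yak of 18 months pubertal, and both yak of 4 years and cattle-yak of 4 years sexually mature. The cattle-yak is the hybrid of cattle and yak, here from Jersey bulls and Gannan yak cows per the study's methods, and its males are sterile. 1 library was made per animal, so the p-values below measure the spread between 3 animals a group. The labels give castration as the source of every testis, whereas the methods give euthanasia for the yak of 4 years and castration for the cattle-yak, so in that comparison the way of collection and the genotype cannot be told apart. Summed gene counts ran from 16304058 to 17862516 per library in yak of 4 years, from 38437889 to 52616039 in cattle-yak, and from 21309151 to 37167651 in the younger yak.

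Laminins are cross-shaped trimers of an alpha, a beta and a gamma chain that polymerise into the sheet of the basement membrane, and nidogens and the heparan sulfate proteoglycans perlecan and agrin link that sheet to type IV collagen and to cells. Integrins are receptors made of an alpha and a beta subunit that bind laminin, collagen, fibronectin or other cells and tie them to actin. In the seminiferous tubule a basement membrane lies between the peritubular myoid cells and the Sertoli cells and spermatogonia, and laminin chains and integrins are also known from the Sertoli cell junctions that hold maturing spermatids.

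Levels are given as FPKM, footprints scaled to gene length and library total, which allows levels to be compared between genes. Fold changes are on the count scale, as log2 with the standard error, from the quasi-likelihood test of edgeR, with p-values adjusted by Benjamini-Hochberg over all genes tested. The counts were scaled between libraries by TMM, a factor that the FPKM do not carry. A fold change can thus differ from the ratio of the FPKM beside it. With library size alone the median of all genes moved from 0.08 to 0.64 in 4-year against 6-month yak. A gene is called where the adjusted p is below 0.05 and the log2 fold change at least 1 in size. In 6-month yak the highest of the 38 genes were NID1, LAMB1, LAMA1, ITGB5 and ITGAV, while in 4-year yak and in cattle-yak ITGAV and ITGB5 led. The number of the 38 with a mean of at least 10 FPKM was 17 in 6-month yak, 15 in 18-month yak, 11 in 4-year yak and 12 in cattle-yak.

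**Figure D1:**
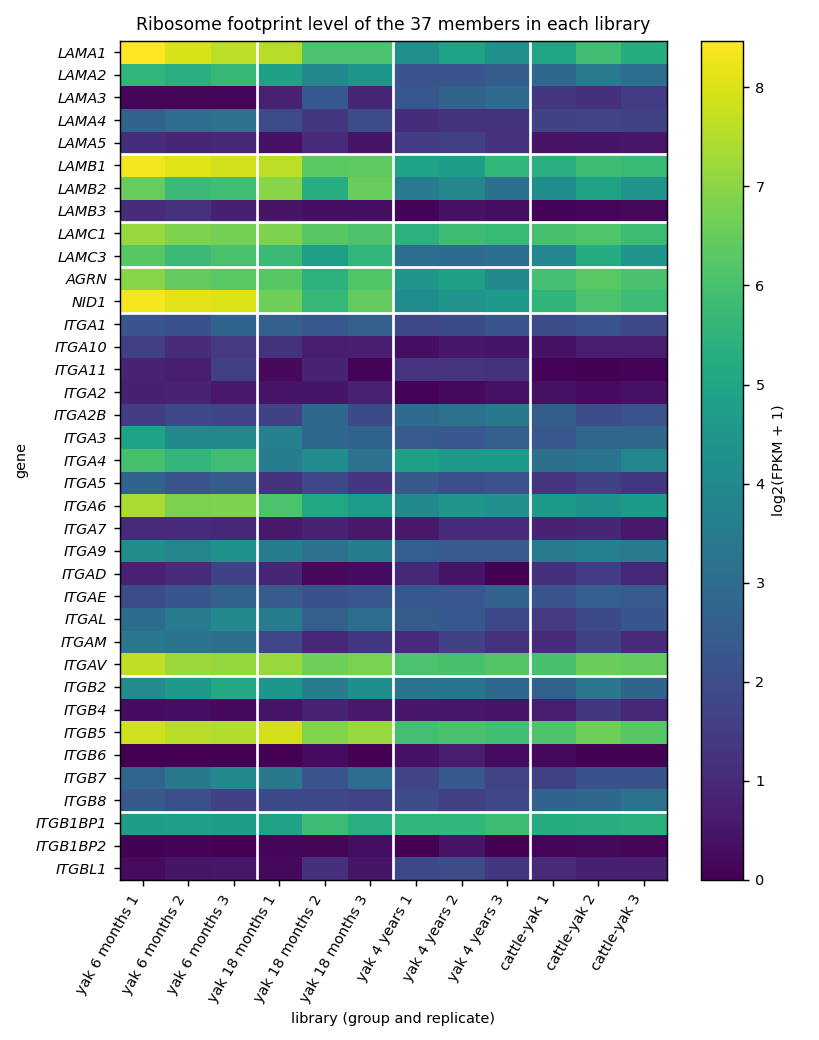
Footprint level of 37 of the 38 genes (rows, ordered as laminin alpha, beta and gamma chains, AGRN and NID1, integrin alpha and beta subunits and other proteins) in each of the 12 libraries (columns), as log2(FPKM + 1). The LAMA1, LAMB1, LAMC1, AGRN and NID1 rows are brightest on average in the 6-month libraries, and LAMA3 and ITGBL1 are brighter in 4-year than in 6-month yak.

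Between the juvenile and the mature yak most of the basement membrane genes fell. Of the 36 members tested in 4-year against 6-month yak, 24 were lower and 4 higher. That is 66.7% lower and 11.1% higher, where over all 16133 genes tested 24.7% were called lower and 31.0% higher. The median log2 fold change of the members tested was -2.17, beside 0.08 over all genes. LAMB1, LAMB2, LAMB3, LAMA1, LAMA2, LAMA4, LAMC1, LAMC3, NID1 and AGRN were lower, as were 11 of the 16 integrin alpha subunits and 3 of the 5 beta subunits tested. ITGB1BP2 and ITGB6 had too few counts to be tested. ITGB6, listed at 0 in the 6-month libraries, was called higher at 4 years in all 6 fits that left out a library, with DESeq2, with no filter on low counts and with all 12 libraries in 1 fit. A mature testis holds many more germ cells, and in whole tissue fewer cells of a type and fewer footprints per cell cannot be told apart.

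NID1 (ENSBGRG00000019277), the nidogen that bridges the laminin and collagen IV networks, had the largest fall. Its level was 324, 270.3 and 260 FPKM in the 6-month libraries and 16.2, 20.02 and 22.6 FPKM in the 4-year libraries. The groups lay far apart, and the log2 fold change was -4.46 ± 0.25 (SE; adjusted p = 6.4e-07), a 22.0-fold fall in TMM-scaled counts. The mean FPKM, without that scaling, went from 285 to 19.6. LAMA1 (ENSBGRG00000024286), the alpha chain of the laminin first found in tumour matrix and typical of early basement membranes, stood at 354, 250.0 and 199 FPKM at 6 months and at 17.9, 29.5 and 18.6 FPKM at 4 years, and its log2 fold change was -4.00 ± 0.36 (adjusted p = 1.2e-05). LAMA2 (ENSBGRG00000012099), the alpha chain of muscle basement membranes, went from 46.6, 39.9 and 49.0 FPKM to 3.69, 3.72 and 4.63 FPKM, a log2 fold change of -4.07 ± 0.20 (adjusted p = 3.2e-07). For neither gene did any library of one age reach the range of the other.

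LAMC1 and LAMC3, gamma chains, were both lower at 4 years. LAMC1 (ENSBGRG00000011557), the gamma chain of most laminins, was at 142, 114 and 102 FPKM in 6-month yak and at 41.8, 56.8 and 53.0 FPKM in 4-year yak, a log2 fold change of -1.83 ± 0.23 (adjusted p = 9e-05). LAMC3 (ENSBGRG00000009568), a gamma chain described in rodent testis, was at 76.3, 53.3 and 65.3 FPKM and then at 7.32, 7 and 7.56 FPKM, a log2 fold change of -3.74 ± 0.22 (adjusted p = 9.6e-07). For both the libraries of the 2 ages were separate.

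LAMA3 (ENSBGRG00000025081), the alpha chain of an epithelial laminin, had the largest rise among the members tested. It was at 0.09, 0.11 and 0.10 FPKM at 6 months, from 24 to 39 counts per library, and at 4.00, 5.63 and 6.72 FPKM at 4 years. The log2 fold change was 4.97 ± 0.24 (adjusted p = 3e-07). LAMB3, the beta chain of the same epithelial laminin, fell instead, from 1.13, 1.31 and 0.67 FPKM to 0.06, 0.33 and 0.24 FPKM (log2 fold change -2.82 ± 0.56, adjusted p = 0.0017). ITGBL1, a secreted protein built of integrin-beta-like repeats, rose by a log2 fold change of 2.21 ± 0.45, from 0.19, 0.41 and 0.44 FPKM to 2.69, 2.94 and 1.52 FPKM (adjusted p = 0.0018). ITGA2B, best known as the platelet alpha subunit, was at 1.91, 2.66 and 2.43 FPKM and then at 6.85, 8.09 and 9.38 FPKM, and its log2 fold change was 1.23 ± 0.18 (adjusted p = 0.00023). In LAMA3, ITGBL1 and ITGA2B the ranges of both ages were separate, and all libraries were below 10 FPKM.

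Among the integrins, ITGA6 (ENSBGRG00000010970), the alpha subunit of the main laminin receptors and a surface marker of spermatogonia, fell from 167, 109.7 and 114 FPKM to 15.1, 20.5 and 18.4 FPKM (log2 fold change -3.44 ± 0.27, adjusted p = 4.7e-06). ITGAV, the alpha subunit of receptors for vitronectin and fibronectin, fell less, its log2 fold change being -1.86 ± 0.23 (adjusted p = 9.6e-05). The ITGAV to ITGA6 ratio of FPKM was 1.26 ± 0.0650 in 6-month yak and 3.81 ± 0.665 in 4-year yak (mean ± SD, n = 3). ITGAM, ITGAL, ITGB2 and ITGB7, subunits of leukocyte integrins, had log2 fold changes from -3.13 to -2.15. Not called were LAMA5, ITGA11, ITGA5, ITGA7, ITGAE, ITGB4, ITGB8 and ITGB1BP1, with log2 fold changes between -0.93 and 0.46. Of these, ITGA5 was called lower without 4-year replicate 1 (-1.05) or 6-month replicate 2 (-1.08). ITGB8 was called lower without 4-year replicate 1 (-1.05) or 6-month replicate 3 (-1.17). ITGB4 was called higher with library size alone (1.03). The calls of ITGA1 (-1.05) and ITGAD (-2.16) each failed in 3 of the 6 fits that left out a library. For ITGA1 these were the fits without 6-month replicate 3 (-0.84) and without 4-year replicate 1 (-0.97) or 2 (-0.98). For ITGAD they were those without 6-month replicate 2 (-2.33) or 3 (-1.64) and without 4-year replicate 2 (-2.06). ITGA1 also lost its call with DESeq2 (-0.97), RLE scaling (-0.97), library size alone (-0.48) and both limma fits. ITGAD also lost its call with library size alone (-1.64), all 12 libraries in 1 fit (-2.13), a replicate block and both limma fits.

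**Figure D2:**
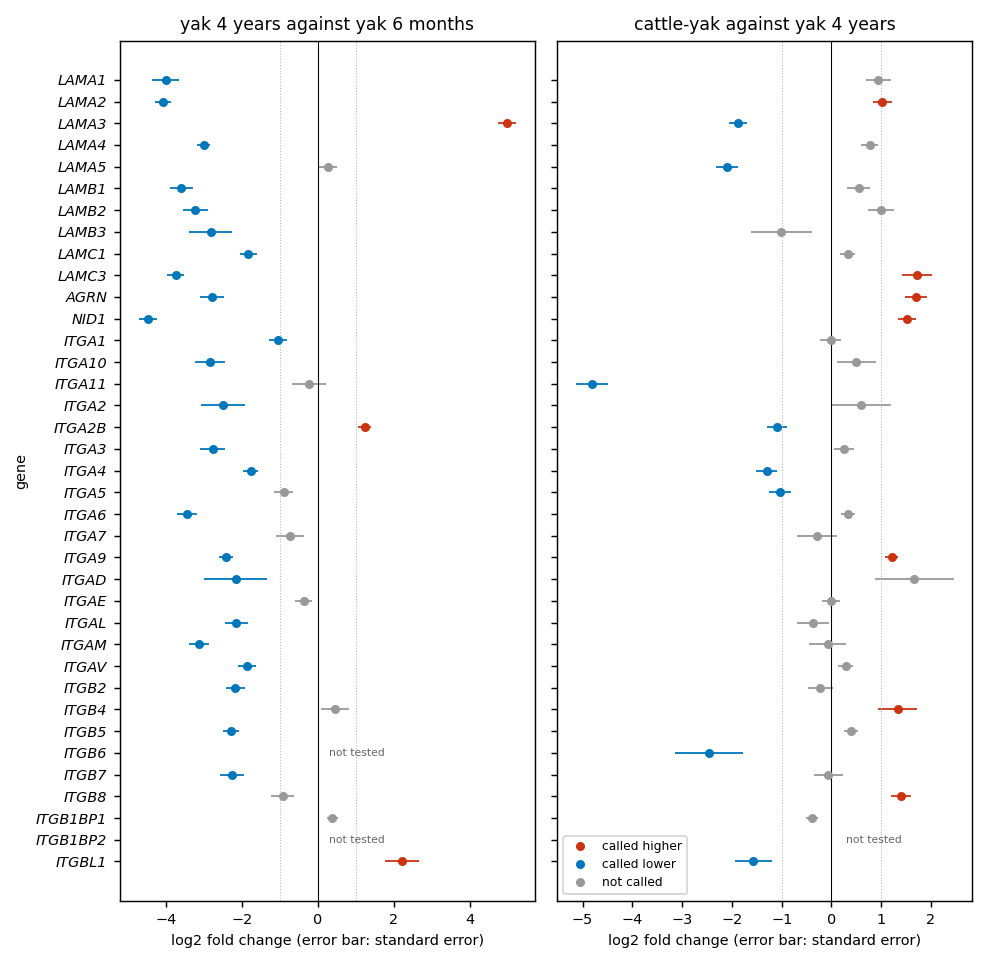
Log2 fold change of each member on the count scale, with its standard error, in 4-year against 6-month yak (left) and in cattle-yak against 4-year yak (right). Red points were called higher, blue points lower and grey points were not called. The left panel holds 24 blue and 3 red points and the right panel 8 blue and 7 red points for the 37 genes drawn.

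The study set the sterile hybrid against the fertile yak of the same age. In cattle-yak against 4-year yak, 7 of the 37 members tested were higher and 9 lower, which is 18.9% and 24.3%. Over all 16498 genes tested, 17.1% were called higher and 27.0% lower, so the members were called about as often as other genes, and their median log2 fold change was 0.25. NID1, AGRN, LAMA2, LAMC3, ITGA9, ITGB4 and ITGB8 were higher, and those lower included LAMA3, LAMA5, ITGA11, ITGA2B, ITGA4, ITGA5, ITGB6 and ITGBL1.

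AGRN (ENSBGRG00000015397), a heparan sulfate proteoglycan that binds the long arm of laminin, was at 60.5, 78.6 and 64.1 FPKM in cattle-yak and at 20.2, 27.3 and 15.3 FPKM in 4-year yak. Every hybrid library lay above every 4-year yak library, and the log2 fold change was 1.70 ± 0.22 (adjusted p = 0.00021), or 3.25-fold. NID1 was at 45.3, 65.5 and 56.9 FPKM in cattle-yak, also above all 3 libraries of 4-year yak given above (log2 fold change 1.52 ± 0.17, adjusted p = 0.00011). For LAMC3 the hybrid libraries were spread, at 14.1, 36.9 and 20.7 FPKM, yet all exceeded the 4-year range of 7 to 7.56 FPKM (log2 fold change 1.72 ± 0.31, adjusted p = 0.0014). LAMC1, its counterpart, stood at 64.0, 69.0 and 55.4 FPKM in cattle-yak and overlapped the 4-year yak, its log2 fold change being 0.33 ± 0.15 (adjusted p = 0.083).

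Of the remaining chains, LAMA2 was at 6.2, 10.4 and 7.63 FPKM in the hybrid, with a difference on the log2 scale of 1.02 ± 0.19 (adjusted p = 0.0019). Without cattle-yak replicate 2 the value was 0.80, with DESeq2 0.99, with RLE scaling 0.98, with a replicate block 0.99, and with limma 0.97 on log2(FPKM + 0.1) and 0.84 on log2(FPKM + 1), all below the size asked for. LAMA1 and LAMB2, the beta chain of synaptic and kidney basement membranes, had log2 fold changes of 0.94 ± 0.26 (adjusted p = 0.011) and 0.99 ± 0.26 (adjusted p = 0.011) and thus just missed the size, and LAMA4, the alpha chain of vessel walls, had 0.77 ± 0.17 (adjusted p = 0.0042). LAMA1 passed in the fits without 4-year replicate 2 (1.26) and without cattle-yak replicate 1 (1.11) or 3 (1.03), and LAMB2 passed in those 3 (1.30, 1.13 and 1.07) and without 4-year replicate 1 (1.07), with no filter on low counts (1.02) and with a replicate block. LAMB1, the beta chain of the widespread laminins, was not called (0.54 ± 0.23, adjusted p = 0.067).

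The epithelial-type alpha chains were lower in the hybrid. LAMA3 was at 1.61, 1.25 and 1.76 FPKM in cattle-yak and below every 4-year library, a log2 fold change of -1.87 ± 0.18 (adjusted p = 4.2e-05). LAMA5 (ENSBGRG00000021195), the alpha chain of many adult epithelia and vessels, was at 0.37, 0.40 and 0.43 FPKM in cattle-yak and at 1.88, 2.03 and 1.29 FPKM in 4-year yak, a log2 fold change of -2.10 ± 0.22 (adjusted p = 6.1e-05).

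**Figure D3:**
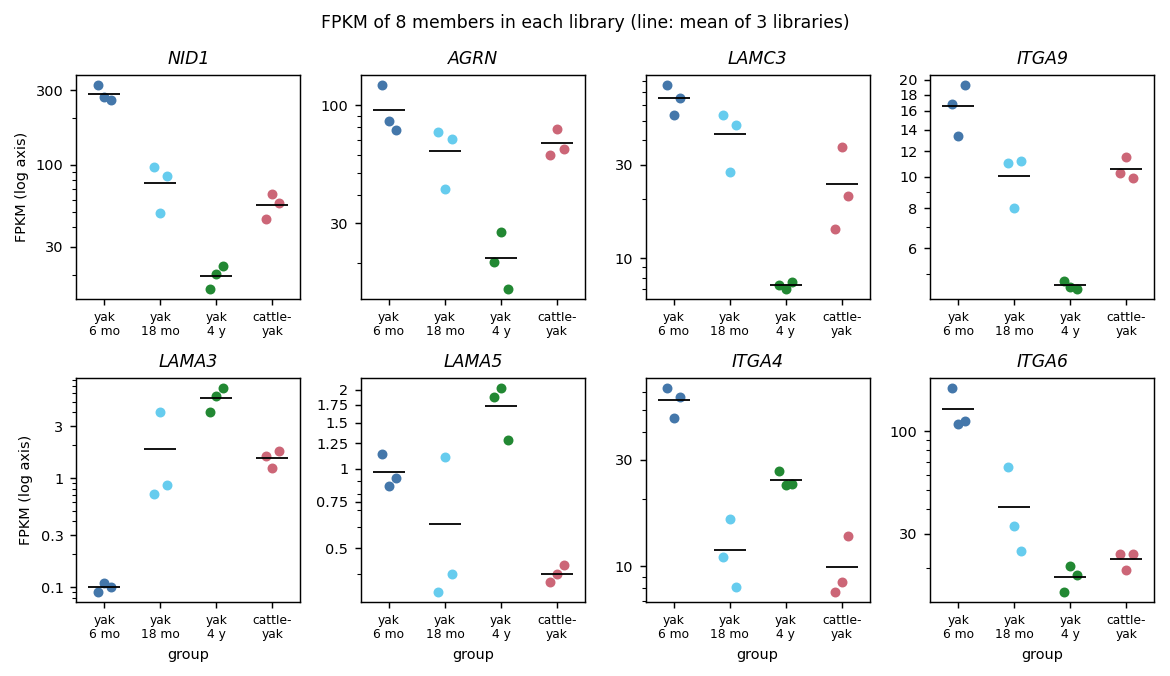
FPKM on a log axis in each library (points) with the group mean (line) for 8 members in yak of 6 months, 18 months and 4 years and in cattle-yak. NID1, AGRN, LAMC3 and ITGA9 have their lowest mean in 4-year yak, where LAMA3 and LAMA5 have their highest.

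Among the integrin alpha subunits, ITGA11 (ENSBGRG00000021881), a collagen receptor of fibroblasts, had the largest difference, lower in the hybrid. It was at 0.05, 0.04 and 0.05 FPKM, or 6 to 10 counts per library, in cattle-yak and at 1.47, 1.43 and 1.36 FPKM, or 80 to 94 counts, in 4-year yak (log2 fold change -4.81 ± 0.32, adjusted p = 6.2e-06). ITGA4, which with ITGB7 or the beta-1 subunit binds VCAM1 and fibronectin, was at 7.68, 8.49 and 13.7 FPKM in cattle-yak and at 26.8, 23.2 and 23.4 FPKM in 4-year yak. Its log2 fold change was -1.30 ± 0.21 (adjusted p = 0.00084), and its partner ITGB7 was not called (-0.06 ± 0.29). ITGA9, a receptor for tenascin-C and osteopontin, was higher, at 10.3, 11.6 and 9.94 FPKM against 4.76, 4.56 and 4.49 FPKM (log2 fold change 1.21 ± 0.14, adjusted p = 9.8e-05).

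Near the limit of size were ITGA2B (-1.10 ± 0.20) and ITGA5, the alpha subunit of the fibronectin receptor (-1.03 ± 0.23). ITGA2B lost its call without 4-year replicate 3 (-0.93) or cattle-yak replicate 2 (-0.96). ITGA5 lost it without 4-year replicate 1 (-0.82) or 3 (-0.99) and without cattle-yak replicate 1 (-0.93) or 3 (-0.94). ITGA6 and ITGAV, with ITGA4 the most abundant alpha subunits in 4-year yak, did not pass, with log2 fold changes of 0.33 ± 0.15 (adjusted p = 0.077) and 0.28 ± 0.15 (adjusted p = 0.13). ITGA6 was at 23.6, 19.5 and 23.6 FPKM in cattle-yak, a range that overlapped that of 4-year yak.

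The beta subunits gave 3 calls. ITGB8, which with ITGAV binds latent TGF-beta, was at 5.62, 6.28 and 7.88 FPKM in cattle-yak and at 2.81, 2.07 and 2.60 FPKM in 4-year yak (log2 fold change 1.40 ± 0.21, adjusted p = 0.00052). ITGB4, the hemidesmosome partner of ITGA6, was at 0.57, 1.62 and 0.98 FPKM against 0.46, 0.43 and 0.36 FPKM (1.33 ± 0.39, adjusted p = 0.016), and without cattle-yak replicate 2 it was not called (0.89). ITGB6, an epithelial partner of ITGAV, was at 0.13, 0.04 and 0.03 FPKM against 0.33, 0.59 and 0.18 FPKM (-2.46 ± 0.69, adjusted p = 0.013). It rests on 3 to 23 counts per library and was not called without 4-year replicate 2 (-1.99) or with all 12 libraries in 1 fit (-2.48). ITGB5, the main beta subunit with a row here, had a log2 fold change of 0.39 ± 0.15 (adjusted p = 0.043), under the size asked for.

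ITGBL1 was at 1.01, 0.68 and 0.66 FPKM in cattle-yak, below the 1.52 to 2.94 FPKM of 4-year yak (log2 fold change -1.57 ± 0.37, adjusted p = 0.006). Its call was lost with all 12 libraries in 1 fit (-1.57, adjusted p = 0.054) and with limma on log2(FPKM + 1) (-0.90). ITGB1BP1, an inhibitor of integrin activation, was not called (-0.39 ± 0.13), and ITGB1BP2, a chaperone of striated muscle, had at most 7 counts in any library. Not called among the remaining members were LAMB3, ITGA1, ITGA2, ITGA3, ITGA7, ITGA10, ITGAD, ITGAE, ITGAL, ITGAM and ITGB2, with log2 fold changes from -1.01 to 1.66. The largest of these, ITGAD at 1.66 ± 0.79 (adjusted p = 0.096), was called without 4-year replicate 1 (2.87) and with a replicate block (2.14, adjusted p = 0.0496).

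The makeup of the laminin chains differed as well. Shares are of the summed FPKM of the chains of a kind in the same library, as mean ± SD over 3 libraries, and are a description with no test. LAMA1 made up 82.7 ± 4.86% of the alpha chains in 6-month yak, 78.0 ± 6.64% in 18-month yak, 63.2 ± 6.43% in 4-year yak and 76.9 ± 2.75% in cattle-yak. LAMA3 went from 0.0326 ± 0.00917% in 6-month yak to 16.0 ± 4.03% in 4-year yak, and was at 3.07 ± 1.16% in cattle-yak. LAMA5 was at 5.11 ± 1.33% in 4-year yak and at 0.774 ± 0.189% in cattle-yak, and the ranges of both chains did not overlap between these groups.

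LAMC3 made up 35.3 ± 3.59% of the gamma chains in 6-month yak, 12.6 ± 2.01% in 4-year yak and 26.6 ± 8.35% in cattle-yak, where the libraries ran from 18.0% to 34.7%. The lowest hybrid library thus stood above the highest 4-year library, at 14.7%. LAMB1 was the larger beta chain in 11 of 12 libraries, with 74.1 ± 11.3% in 4-year yak and 69.6 ± 3.11% in cattle-yak, ranges that overlapped. Set against LAMC1 in the same library, NID1 stood at 2.40 ± 0.134 in 6-month yak, 0.389 ± 0.0372 in 4-year yak and 0.895 ± 0.166 in cattle-yak. AGRN stood at 0.791 ± 0.0656, 0.418 ± 0.111 and 1.08 ± 0.118 in the same order. Counts per FPKM follow the library total and the length the software assigned to a gene. Each value was therefore divided by its library's median over genes. The scaled value of LAMA1 rose from 5.63 in 6-month yak to 6.53 in 4-year yak and 6.55 in cattle-yak.

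**Figure D4:**
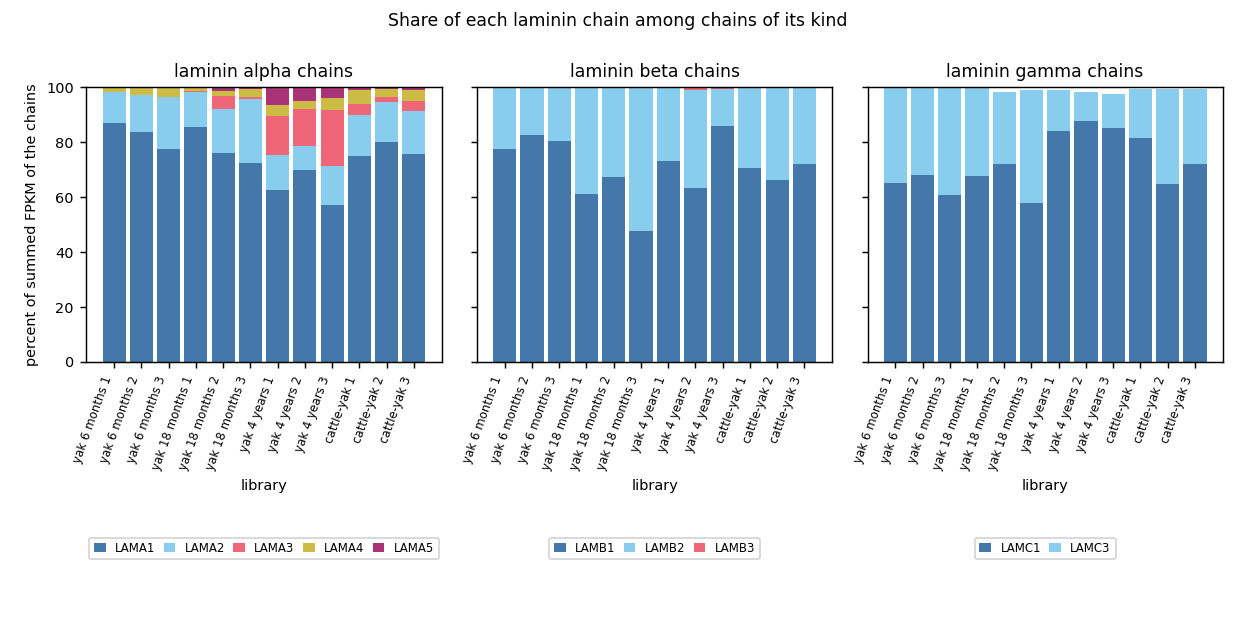
Share of each chain in the summed FPKM of the laminin alpha, beta and gamma chains (percent) in each of the 12 libraries. LAMA3 and LAMA5 take a larger part of the alpha chains in 4-year yak than in the other groups, and LAMC3, above LAMC1 in the right panel, a smaller part of the gamma chains, whose bars leave out a remainder of the sum.

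Set against the juvenile yak instead, most members were lower in the hybrid as well. In cattle-yak against 6-month yak, 27 of 36 members were lower and 3 higher, or 75% and 8.33%, where over all genes tested 19.7% were called lower and 18.1% higher. The groups compared differ in both age and genotype, which cannot be told apart here. This comparison and the one of 4-year with 6-month yak use the same 6-month libraries, so they are not independent. ITGA11 (log2 fold change -5.03 ± 0.59, adjusted p = 0.00022) and LAMB3 (-3.81 ± 0.43, adjusted p = 0.00017), at 0.07, 0.10 and 0.14 FPKM in the hybrid, were lowest by fold. In the 6-month libraries ITGA11 was low and spread, at 0.79, 0.56 and 2.07 FPKM, or 73, 75 and 229 counts. ITGAM, a macrophage and granulocyte subunit, was at 1.10, 2.11 and 1.01 FPKM against 9.42, 8.66 and 7.81 FPKM (-3.19 ± 0.31, adjusted p = 9.2e-05), and ITGA6 followed (-3.09 ± 0.25, adjusted p = 4e-05).

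Higher in the hybrid than in juvenile yak were, among others, LAMA3 (3.12 ± 0.25, adjusted p = 3.4e-05) and ITGB4 (1.82 ± 0.43, adjusted p = 0.007), the latter against 0.22, 0.23 and 0.17 FPKM. NID1 had a log2 fold change of -2.92 ± 0.24 (adjusted p = 3.8e-05), and AGRN was at -1.06 ± 0.25 (adjusted p = 0.0073), a call that failed without 6-month replicate 1 (-0.74) or cattle-yak replicate 1 (-0.98). ITGA1 failed without 6-month replicate 3 (-0.83) or cattle-yak replicate 3 (-0.94), and ITGA7 without 6-month replicate 1 (-0.93) or cattle-yak replicate 1 (-1.07) or 3 (-0.79). ITGA7 failed with DESeq2 (-0.98) and RLE scaling (-0.99) as well. ITGB8 was not called (0.49 ± 0.28), although the hybrid libraries given above lay over the 4.1, 3.2 and 2.13 FPKM of 6-month yak, and it was called with scaling by library size alone (1.05, adjusted p = 0.0067) and with limma on log2(FPKM + 0.1) (1.08, adjusted p = 0.011).

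The 18-month yak lay between both ages for most members, but its libraries were uneven. Replicate 2 correlated with replicates 1 and 3 at 0.876 and 0.899 over genes on log2(FPKM + 1), against 0.974 between the latter, and its summed spermatid markers stood at 3416 CPM, a count scaled to the library total, where replicates 1 and 3 had 31.0 and 54.1. Mean levels at 18 months lay between those of 6 months and 4 years in 27 of the 38 genes, in 21 on a falling and in 6 on a rising course. For AGRN, ITGA3, ITGA6, ITGA9, LAMA1, LAMA2, LAMA4, LAMB1 and NID1 the libraries of the 3 ages fell into 3 separate ranges. How many of all genes follow either pattern was not determined, so these counts describe the members alone.

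NID1 was at 96.5, 49.0 and 85.6 FPKM in the 18-month libraries, LAMC3 at 53.4, 27.4 and 47.5 FPKM, and AGRN at 76.1, 42.4 and 70.6 FPKM. Replicate 2 was the lowest of the 3 in each. LAMA3 was at 0.71, 4.03 and 0.86 FPKM, and LAMA5 at 0.34, 1.11 and 0.40 FPKM, so that replicate 2 was the highest and reached the 4-year range for LAMA3. LAMC1 was at 112, 75.6 and 67.3 FPKM and ITGA6 at 65.6, 32.8 and 24.3 FPKM, where replicate 1 stood apart instead. LAMB2 did not differ beyond its spread at 18 months, at 124, 38 and 89.3 FPKM against 90.7, 53.9 and 57.6 FPKM at 6 months (log2 fold change -0.02 ± 0.51).

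With this spread edgeR called 0 of 36 members in 18-month against 6-month yak in either direction, where 22 had an unadjusted p below 0.05 (3 higher and 19 lower), and over all genes 0.0202% were called higher and 0.0471% lower. DESeq2 called 2 members higher and 13 lower, where it called 6.81% of all genes higher and 5.00% lower. In 4-year against 18-month yak edgeR likewise called 0 of 36 in either direction, with 26 at an unadjusted p below 0.05 (6 higher and 20 lower), and 0% of all genes higher and 0.0371% lower. DESeq2 called 3 members higher and 13 lower there, where it called 7.18% of all genes higher and 11.6% lower.

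Without 18-month replicate 2, edgeR called 8 members higher and 19 lower in 4-year against 18-month yak, where 26.1% of all genes were called higher and 18.5% lower. Among them were LAMB2 (-3.54), LAMC3 (-3.03), NID1 (-2.48), LAMA3 (2.47) and LAMA5 (2.01). In 18-month against 6-month yak the same omission left 1 member higher, LAMA3 (2.54), and 3 lower, ITGA4 (-2.83), ITGAM (-2.39) and LAMA4 (-1.60), where 0.226% of all genes were called higher and 0.279% lower. Without 18-month replicate 1 instead, 2 members were higher and 16 lower in that comparison, where 8.70% of all genes were called higher and 8.08% lower.

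Other basement membrane genes were counted over the same comparisons. Of 29 tested genes for type IV collagens and other basement membrane proteins and receptors, 21 were lower and 5 higher in 4-year against 6-month yak, with a median log2 fold change of -3.19. Over all genes tested in that comparison 24.7% were called lower and 31.0% higher, with a median of 0.08. The largest falls were in COL4A6 (-6.73) and COL4A2 (-6.65), chains of type IV collagen, the latter from a mean of 682 to 10.2 FPKM. EFEMP1, a fibulin, rose by a log2 fold change of 4.06. VTN, vitronectin, was listed at 0 in the 6-month libraries and at a mean of 0.770 FPKM at 4 years. A ratio cannot be taken from 0, so these rises are not ranked. In cattle-yak against 4-year yak 12 of 28 were higher and 3 lower, with a median of 0.89. Over all genes tested there 17.1% were called higher and 27.0% lower, with a median of -0.002. FREM2, a Fraser complex protein of epithelial basement membranes (3.71), and TNC, tenascin-C (2.96), were the most raised by fold, and VTN (-4.71) and SMOC1, a calcium-binding matrix protein (-2.78) the most lowered.

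Of 27 genes for proteins that bind integrin tails or sit in focal adhesions, 13 were higher and 0 lower in cattle-yak than in 4-year yak, with a median log2 fold change of 0.96. The shares over all genes were 17.1% higher and 27.0% lower. SRC, the adhesion kinase, was at a mean of 68.2 against 17.0 FPKM (2.01) and PXN, paxillin, at 144 against 36.5 FPKM (1.98). In 4-year against 6-month yak 15 were lower and 2 higher, with a median of -1.22, beside 24.7% lower and 31.0% higher over all genes. The changes were led by KANK2 (-3.37) and PARVG (-3.15), adaptors of talin and of integrin-linked kinase, and by LIMS2 (1.49) and SHARPIN (1.03) in the other direction. Against 6-month yak the hybrid had 3 partners higher and 18 lower of 28 (median -1.88), and 5 adhesion genes higher and 8 lower of 27 (median 0.03). Over all genes tested there 18.1% were called higher and 19.7% lower, with a median of -0.02.

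Cell type markers moved between the same groups. In cattle-yak against 4-year yak all 9 spermatid markers tested were lower (median log2 fold change -8.66), and their summed level was 176 to 314 CPM in the hybrid, 5368 to 6190 in 4-year yak and 20.9 to 37.8 in 6-month yak. Higher in the hybrid were 7 of 7 peritubular myoid markers (median 2.18), 5 of 8 Sertoli cell markers (1.36), 3 of 3 Leydig cell markers (2.50) and 3 of 6 spermatogonia markers (1.10). Not every listed gene had a row, as the lists held 8 Leydig cell, 12 Sertoli cell and 9 spermatogonia markers. Endothelial markers had 2 higher and 1 lower of 9 (0.80), macrophage and leukocyte markers 1 higher and 2 lower of 9 (-0.07), and 3 of 8 spermatocyte markers were lower (-0.92). Over all genes tested in that comparison 17.1% were called higher and 27.0% lower.

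Summed Sertoli cell markers stood at 7058 to 8655 CPM in 6-month yak, 880 to 1248 in 4-year yak and 1925 to 2128 in cattle-yak. The myoid markers stood at 363 to 526, 367 to 391 and 1319 to 2051, and the endothelial markers at 183 to 284, 71.6 to 96.3 and 52.6 to 77.5 in the same order. A sum weighs genes by their level, so the endothelial sum and median need not go the same way. In 4-year against 6-month yak the medians were -1.74 for Sertoli, -0.57 for myoid, -4.56 for Leydig, -2.08 for endothelial, -1.69 for macrophage and leukocyte, 0.52 for spermatogonia, 4.69 for spermatocyte and 9.85 for spermatid markers. The part of these changes in the values of the laminin and integrin genes was not tested.

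Rows without a symbol lay outside the rule, but some descriptions name members of the families. The row described as nidogen-2 was at 102, 103 and 134 FPKM in 6-month yak and at 18.0, 12.2 and 21.8 FPKM in 4-year yak (log2 fold change -3.27 ± 0.23, adjusted p = 2.9e-06). In cattle-yak it was at 22.3, 18.7 and 16.3 FPKM and not called against 4-year yak (0.16 ± 0.25), and whether it differs there from NID1 was not tested. In 6-month replicate 1 the nidogen-2 row had 1822 counts at 102 FPKM, where NID1 had 31420 counts at 324 FPKM. Its counts per FPKM were thus fewer, and whether the row covers the whole gene was not tested. The row described as part of integrin alpha-8, a subunit of smooth muscle and fibroblasts, was at 12.1, 7.97 and 9.95 FPKM in cattle-yak against 3.60, 3.97 and 3.82 FPKM in 4-year yak (1.41 ± 0.26, adjusted p = 0.0017).

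The row described as the integrin beta-3 precursor, partner of ITGAV and ITGA2B, was at 0.41, 0.95 and 0.49 FPKM in cattle-yak and at 1.81, 1.57 and 1 FPKM in 4-year yak. It was called lower in the hybrid (-1.25 ± 0.41, adjusted p = 0.027), a call that held in 2 of the 6 fits that left out a library, and it was not called in 4-year against 6-month yak (0.87 ± 0.41). The row described as the perlecan core protein was called in neither comparison (-0.46 ± 0.31 and -0.32 ± 0.49). It held only 22 to 124 counts per library. Its counts per FPKM were uneven, with 78 counts at 3.08 FPKM in 6-month replicate 1 and 29 at 0.50 FPKM in replicate 3. Whether that row covers the whole perlecan gene was not tested. Integrin alpha-X, a myeloid subunit, was at 1.56, 2.06 and 3.06 FPKM in 6-month yak and at 0.27, 0.38 and 0.32 FPKM in 4-year yak (-3.33 ± 0.32, adjusted p = 1.9e-05), and its difference between the hybrid and 4-year yak was under the size asked for (0.86 ± 0.33, adjusted p = 0.048). Laminin beta-4 was at most at 0.25 FPKM in any library and was not tested.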

How the data were processed

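The deposited tables hold, for each of 12 testis libraries, the footprint count and the FPKM of each gene. Per the study's methods the authors kept reads of footprint length, aligned them to the yak genome BosGru 3.0, also for the hybrid, and obtained both values with RSEM; the effect of cattle alleles on alignment was not tested. The deposited estimated counts are whole numbers, and the FPKM are scaled by the authors to gene length and library total. The authors' fold changes and p-values in the tables, and tables of group means, were not used. Groups came from the sample titles, and replicates differed by more than counting noise.

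Counts were tested over all genes with edgeR 4.0.16 in R 4.3.3 (filterByExpr, TMM, quasi-likelihood test, 6 libraries per comparison), with DESeq2 1.42.0 and limma 3.58.1 on log2(FPKM + 1) and log2(FPKM + 0.1) as alternatives. limma was run on genes with a mean FPKM of at least 1 in either group. Standard errors are the log2 fold change over the root of F. The script recovered known changes in simulated counts. The members and lists were chosen with earlier results of these data known. Library values are given for LAMC1, LAMC3, NID1, AGRN and ITGA6 and, per comparison, for the 4 largest called changes in each direction; values of further members were added after they were seen. 1 member enters the counts but is not reported here. Positions and sequences are not given here.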

Additional observations from a re-analysis of the deposited data

How the results depend on the processing

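No called member changed direction under any alternative. Fitting limma to log2(FPKM + 1) left 5 members higher and 3 lower in cattle-yak against 4-year yak, where LAMA5 (-0.96), ITGA2B (-0.94), ITGA5 (-0.76), ITGBL1, ITGB4 and LAMA2 were among the calls lost, and, against 6-month yak, 1 higher and 17 lower. All 12 libraries in 1 fit gave 2 higher and 12 lower in 18-month against 6-month yak (10.8% and 4.90% of all genes), 3 higher and 16 lower in 4-year against 18-month yak (6.63% and 14.0%), and 7 higher and 6 lower in cattle-yak against 4-year yak (16.0% and 23.3%), where 53.8% of the calls were then higher instead of 43.8%. DESeq2 gave 2 and 13, then 3 and 13. Scaling by library size alone gave 3 lower in 18-month against 6-month yak (0.329% of all genes), and limma on log2(FPKM + 1) 2 lower in 4-year against 18-month yak. Leaving out 1 library gave 0 to 2 higher and 0 to 16 lower in 18-month against 6-month yak, and 0 to 8 higher and 0 to 19 lower in 4-year against 18-month yak; the cause was not tested. Same-numbered libraries did not deviate together, with correlations of -0.151 to 0.103 over 15 pairs, so the numbers are not taken to pair animals; with a replicate block 1 member was higher and 8 lower in 18-month against 6-month yak, LAMA2 (0.99) was among the calls lost and ITGAD (2.14) and LAMB2 were gained in cattle-yak against 4-year yak, and ITGAD was lost in 4-year against 6-month yak. Library size alone moved the median of all genes from 0.08 to 0.64 in 4-year against 6-month yak. There 22 members were still lower and 5 higher, where 15.45% of all genes were called lower and 40.89% higher. In cattle-yak against 6-month yak the median moved from -0.02 to 0.52. There 21 members were still lower and 4 higher, where 12.04% of all genes were called lower and 31.26% higher. ITGA1, ITGA7, ITGA9, ITGAV, LAMC1 and AGRN lost their call in that comparison and ITGB8 gained one. Shares over all genes are not given for limma or the replicate block, so those counts describe the members alone. Low counts limit LAMB3, ITGA11 and ITGB6.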
